A study of Mus musculus with 4 samples.

Results

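The genes described here are small heat shock proteins (Hspb9, Hspb1, Hspb6, Hspb8 and Cryab), the cytosolic HSP90 pair Hsp90aa1 and Hsp90ab1, the HSP110 gene Hsph1, and the heat shock factors Hsf1 and Hsf2. They are 10 of the 24388 gene symbols in the deposited table, and all 10 were found in it by symbol. They were chosen by family, together with an earlier result of these data, namely the fall of Hspb9 RPKM in the knockout. The contrast of knockout with control was therefore known when the list was made. For that reason the fold changes and calls of these 10 genes describe the 4 libraries and are not used as evidence of anything further.

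The libraries hold poly(A) RNA of spermatocyte suspensions from the testes of C57BL/6 mice, 2 from controls and 2 labelled as Np95 knockout. Np95 is the protein of the gene Uhrf1, which recognises hemimethylated DNA and recruits the maintenance methyltransferase Dnmt1. The age of the mice is given as 21 dpc in all 4 libraries, and what drives the deletion, beyond the letters cKO in the column names, is not given in the sources used here. Tubules were minced, treated with accutase and filtered through a mesh, and sorting is not mentioned. Nothing in the labels says that replicates were separate animals, and any p-value here covers the variation from library to library alone, possibly only technical.

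Heat shock proteins are molecular chaperones. Small heat shock proteins share an alpha-crystallin domain and hold unfolding proteins without using ATP, whereas HSP90 is an ATP-driven chaperone that matures kinases, receptors and other client proteins together with a set of co-chaperones. HSF1 is the transcription factor that induces chaperone genes under stress, and it binds heat shock elements made of alternating GAA and TTC units. Male germ cells make several chaperones in a stage-dependent way without any heat shock. Hspb9 is known as a testis-restricted small heat shock protein, and Hsp90aa1 is the HSP90 form that is abundant in meiotic and later male germ cells.

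Promoter windows show which of these genes carry heat shock element letters near the start site, and they are printed because the small heat shock genes went in both directions. RefSeq windows (build GRCm38.p6, 250 bases before to 50 after the start) were available for 6 of the 10 genes (Hspb9, Hspb1, Hspb6, Hspb8, Hsph1 and Hsf2), in 8 windows. The letters GAANNTTC and TTCNNGAA, each its own reverse complement and therefore the same on both strands, are in capitals below. The windows run 5′ to 3′ on the strand of the gene. They lie at chr11:100713679-100713978 on the plus strand for Hspb9, chr5:135887669-135887968 (plus) for Hspb1, chr7:30553051-30553350 (plus) for the downstream start of Hspb6, chr5:116422815-116423114 (minus) for Hspb8 and chr5:149636287-149636586 (minus) for the upstream start of Hsph1.
Hspb9: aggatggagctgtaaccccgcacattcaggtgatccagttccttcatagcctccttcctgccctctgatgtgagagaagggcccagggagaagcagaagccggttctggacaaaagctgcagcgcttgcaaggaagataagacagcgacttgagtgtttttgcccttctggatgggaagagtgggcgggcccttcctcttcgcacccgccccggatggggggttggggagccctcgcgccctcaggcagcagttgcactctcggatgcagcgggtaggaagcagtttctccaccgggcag
Hspb1: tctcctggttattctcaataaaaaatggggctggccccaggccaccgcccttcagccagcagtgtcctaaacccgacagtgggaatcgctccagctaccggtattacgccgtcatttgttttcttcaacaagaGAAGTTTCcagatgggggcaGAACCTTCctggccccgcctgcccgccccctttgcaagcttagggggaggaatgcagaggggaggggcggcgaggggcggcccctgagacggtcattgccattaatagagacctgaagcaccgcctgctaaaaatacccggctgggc
Hspb6: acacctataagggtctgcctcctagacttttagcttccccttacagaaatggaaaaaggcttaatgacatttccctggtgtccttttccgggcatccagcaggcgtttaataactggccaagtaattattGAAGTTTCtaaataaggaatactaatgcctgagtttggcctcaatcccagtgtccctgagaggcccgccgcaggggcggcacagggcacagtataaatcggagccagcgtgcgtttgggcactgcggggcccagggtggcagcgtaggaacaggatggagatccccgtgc
Hspb8: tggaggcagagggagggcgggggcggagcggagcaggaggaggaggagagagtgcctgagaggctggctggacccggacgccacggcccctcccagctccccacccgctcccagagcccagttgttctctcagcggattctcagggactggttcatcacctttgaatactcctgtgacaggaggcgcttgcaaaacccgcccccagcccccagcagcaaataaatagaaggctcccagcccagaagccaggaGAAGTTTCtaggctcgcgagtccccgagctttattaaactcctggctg
Hsph1: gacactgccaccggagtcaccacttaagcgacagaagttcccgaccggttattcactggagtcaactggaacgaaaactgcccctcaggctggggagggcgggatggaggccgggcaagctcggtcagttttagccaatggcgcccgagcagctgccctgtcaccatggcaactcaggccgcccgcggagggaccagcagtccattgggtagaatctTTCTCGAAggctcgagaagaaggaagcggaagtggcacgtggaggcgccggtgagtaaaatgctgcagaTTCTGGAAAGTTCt

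The Hspb9 window held neither word. Hspb1 had GAANNTTC at 2 places, beginning 117 and 97 bases before its start site. In Hspb6 it began 120 bases before the downstream start, and the window of the upstream start had neither word. Hspb8 had GAANNTTC from base 3 of the transcript. Hsph1 had TTCNNGAA 33 bases before the upstream start and, from base 37 of the transcript, a run of 3 alternating units in which TTCNNGAA and GAANNTTC overlap. In the window of the other Hsph1 start the same words began 54 bases before it and at base 16. The Hsf2 window had neither. Among all 32851 RefSeq windows, 15.1% held at least 1 of the words and 0.603% held a run of 3 units. A match describes letters and is not a binding site. CpG dinucleotides, the sites of maintenance methylation, numbered 13 in the Hspb9 window, 14 in Hspb1, 13 in Hspb8, 11 and 17 in the Hspb6 windows, 19 and 18 in those of Hsph1 and 34 in Hsf2. The median was 7 over all windows and 21 over the windows of the genes tested. DNA methylation itself was not measured in these libraries.

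Expression is given as RPKM, and the steps between low values point to division by the whole gene span, introns included. By that length 45.7% to 48.3% of low values were whole steps, and the length that the authors used is not stated. A gene can be compared between libraries directly, but on that reading genes with introns are understated against Hspb9. The Hspb9 transcript nearest in span to its RefSeq gene has a single exon. Read as 1 read pair each, the steps correspond to about 4810000 to 12810000 read pairs per library. Knockout replicate 2 was the shallowest and control replicate 1 next. A larger share of low values was whole with each step split in 2, so the unit counted may be smaller and numbers of read pairs are approximate. The targeted gene Uhrf1 had 3.11 and 3.29 RPKM in the control libraries against 1.87 and 1.48 in the knockout libraries, so the mean was 1.91-fold lower and Uhrf1 RNA was still measured there. Expression differed widely between the groups. Of 9099 genes with at least 1 RPKM in 2 or more libraries, limma on log2(RPKM + 1) called 73.8% at an adjusted p below 0.05, 43.3% higher and 30.5% lower in the knockout. Groups did not overlap for 89.9% of those genes, and their median log2 fold change was 0.14. Libraries scaled to an equal RPKM sum moved that median to 0.46, with 77.3% of calls higher, and libraries centred on an equal median moved it to -0.05, with 46.3% of calls higher.

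Of the 10 heat shock genes 8 entered the test. In the knockout 4 of them were called higher (Hspb1, Hsp90ab1, Hsph1 and Hsf2), 2 lower (Hspb9 and Hspb6) and 2 were not called (Hsp90aa1 and Hsf1). That compares with the 73.8% of all tested genes that were called, and nothing is read from the count. Knockout and control values did not overlap for any of the 8, where 89.9% of tested genes did not overlap. Hspb8 and Cryab were below the 1 RPKM filter in all 4 libraries. Hsf2 was below 1 RPKM in both controls and entered only through the knockout libraries, so it had to be higher there.

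**Figure D1:**
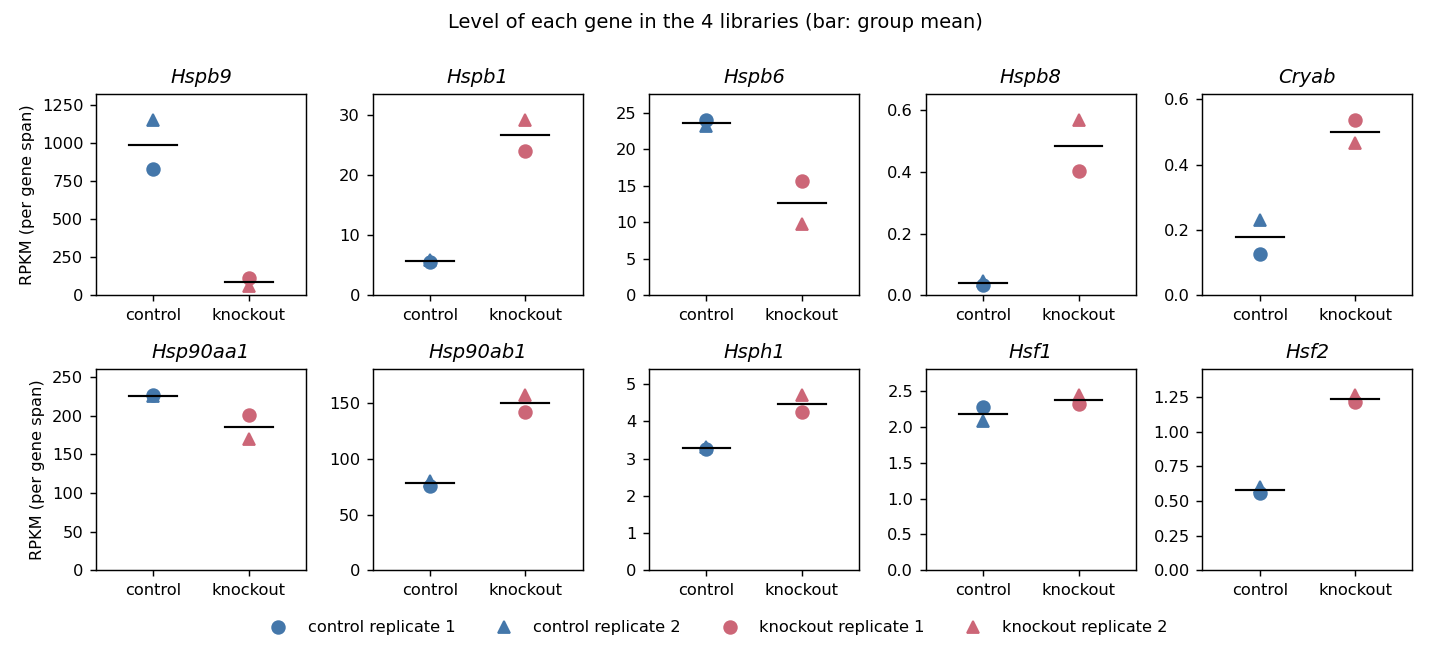
RPKM, read as per gene span, of the 10 heat shock genes in the 2 control and 2 knockout libraries. Vertical axes start at 0, with a separate scale for each gene. Circles are replicate 1, triangles replicate 2 and bars group means. Hspb9, Hspb6 and Hsp90aa1 lie lower in both knockout libraries and the other 7 genes lie higher.

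Hspb9, on chromosome 11, was among the most abundant messages of the control spermatocytes and lost most of its level in the knockout. It had 827 RPKM in control replicate 1 and 1147 in control replicate 2, against 117 in knockout replicate 1 and 62.2 in knockout replicate 2. Both knockout libraries were far below both controls, and within each group the libraries differed by 1.39-fold and 1.89-fold. The control mean was 987 ± 226 RPKM (SD, n = 2). The knockout mean was 89.8 ± 39.0 (SD, n = 2), which is 10.99-fold lower. On the log2(RPKM + 1) scale the change was -3.49 (SE 0.35), the lowest of all 9099 tested genes, and this extreme value is what brought the gene into view. By mean RPKM it ranked 3 of the tested genes in the control and 65 in the knockout. If RPKM is per gene span, that scale favours genes without introns. On the reading of the steps given above, its values correspond to about 3114 and 9508 read pairs in control replicates 1 and 2. In knockout replicates 1 and 2 they correspond to about 844 and 194. In bulk libraries fewer cells of a type and less RNA per cell cannot be told apart.

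The fall of Hspb9 was accompanied by lower values of genes of mid-meiotic cells. Of 19 pachytene genes tested 17 were lower, where 30.5% of all tested genes were, 1 (Mybl1) was higher and 1 (Sycp2) was not called. Of the 17, Zpbp was below 1 RPKM in both knockout libraries and entered only through the controls. Their summed RPKM was 1996 and 1938 in the control libraries against 904 and 707 in the knockout libraries. The median pachytene gene was 2.75-fold lower, and Ccna1, a cyclin of meiotic cells, had the lowest ratio of the list at 7.16-fold lower. The part that a changed share of pachytene cells plays in the Hspb9 value was not tested. Within a library, where scaling cancels, Hspb9 RPKM was 6.25 and 8.23 times that of Pgk2 in the controls and 4.71 and 4.06 times in the knockouts. Hspb9 was picked for its fall, the largest of all tested genes, so this ratio was bound to drop and nothing is read from it.

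Genes near Hspb9 in pattern over the 4 libraries were found by distance. Among 3032 tested genes with a mean of at least 5 RPKM, the nearest by Euclidean distance of centred log2(RPKM + 1) values were Pgk2 (distance 0.83), Fam98c (0.84), Dbil5 (0.84), Mesp1 (0.96) and 1700020D05Rik (0.98). Pgk2, itself on the pachytene list, is the phosphoglycerate kinase of meiotic and later germ cells, and Dbil5 is a testis relative of the acyl-CoA binding protein. Their means were 5.88-fold to 6.83-fold lower in the knockout. Hspb9 has the lowest log2 fold change of all tested genes, so any other gene lies above it.

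**Figure D2:**
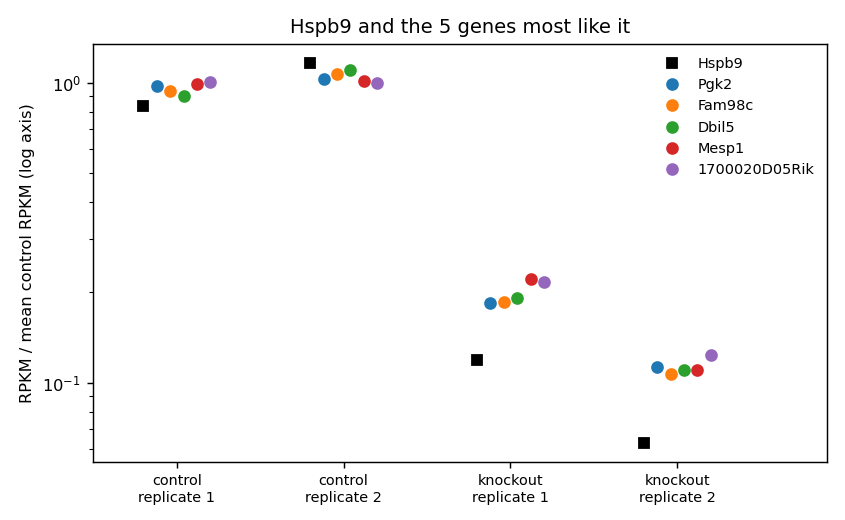
RPKM of Hspb9 (black squares) and of the 5 genes nearest to it in pattern, each divided by its mean control RPKM, on a log axis for the 4 libraries. All 6 genes are low in both knockout libraries, and Hspb9, picked on its fall, is the lowest.

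The genes on either side of Hspb9 did not fall with it. Kat2a, a histone acetyltransferase gene and the RefSeq neighbour on one side, had 7.19 and 6.87 RPKM in the controls and 7.86 and 7.48 in the knockouts (log2 fold change 0.11, limma adjusted p = 0.28). Rab5c, a gene of early endosomes on the other side, rose from 3.27 ± 0.190 RPKM (SD, n = 2) to 5.29 ± 0.386 (SD, n = 2), limma adjusted p = 0.0036. Neither overlaps Hspb9 in the RefSeq table (GRCm38.p6), so the unstranded library does not mix their reads with its own there.

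Hspb6 moved in the same direction as Hspb9, by less. This small heat shock protein is best known from muscle. It had 24.0 and 23.1 RPKM in the controls against 15.6 and 9.77 in the knockouts. Both knockout values were below both controls, and the knockout libraries differed more from each other than the controls did. The mean fell 1.86-fold (log2 fold change -0.88, SE 0.22). This call was lost on scaling to an equal RPKM sum (-0.48, limma adjusted p = 0.071) and with quantile normalization (-0.54, 0.103). Without control replicate 1 the fold was nearly the same (-0.85) and the adjusted p was 0.052. The microRNA row Gm38670, which overlaps Hspb6, went from 8.34 to 5.69 mean RPKM, and without strand reads of the shared stretch cannot be assigned. Lin37 overlaps Hspb6 too and had 2.08 mean RPKM in controls and 1.62 in knockouts, not called. The neighbour Psenen fell from 15.9 to 7.72 (limma adjusted p = 0.0024), and Proser3, on the other side, had 2.55 and 2.75 (0.51).

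Hspb1, the widely expressed stress-induced small heat shock protein HSP25, went the other way. It had 5.49 and 5.93 RPKM in the control libraries and 24.1 and 29.2 in the knockout libraries. Both knockout values were more than 4 times either control value. The ratio of means was 4.67, and the log2 fold change of 2.04 (SE 0.12) ranked 20 from the top of the 9099 tested genes. Its range over the alternatives of scaling was 1.85 to 2.42.

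Hspb8 and Cryab were low in all libraries and higher in the knockout. Hspb8, which works with the co-chaperone Bag3 in clearing misfolded proteins, had 0.0341 and 0.0480 RPKM in the controls and 0.403 and 0.566 in the knockouts. On the same reading of the steps, the values of its control libraries correspond to about 2.85 and 8.83 read pairs, so no fold is given. The lncRNA gene Gm36841, for which no RPKM is given, overlaps 10271 of the 14374 bases of the Hspb8 span in RefSeq. Reads of that stretch cannot be assigned to Hspb8 without strand. Cryab, alpha-B crystallin of lens and muscle, had 0.125 and 0.232 RPKM in the controls and 0.535 and 0.465 in the knockouts, 2.80 times the control mean. RefSeq places Hspb2 and 2310030G06Rik partly within the Cryab span, and reads there cannot be assigned without strand. Without the filter on low values limma called both genes higher, where 34.8% of the 21208 genes then tested were higher and 16.2% lower.

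Among the small heat shock genes outside the list the direction also varied. Hspb7, another muscle form, had 1.91 and 1.76 RPKM in the controls and 0.737 and 0.343 in the knockouts, and entered the test only through the controls. Odf1, a relative found in the outer dense fibres of the sperm tail, went from 0.190 to 0.0465 mean RPKM, below the filter. Hspb3 had 0.157 mean RPKM in controls and 0.346 in knockouts, also below it. Hspb2 was listed at 0 and 0.109 RPKM in the controls and had 0.280 and 0.406 in the knockouts, and Cryaa was listed at 0 in all 4 libraries.

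The 3 small heat shock genes that were higher in the knockout stood beside higher levels of genes of other testis cells and of cell dissociation. All 16 Sertoli cell genes tested were called higher, where 43.3% of all tested genes were, and their summed RPKM, with genes below the filter included, was 153 and 182 in the control libraries and 447 and 554 in the knockout libraries. The most abundant were Aard, from 53.0 to 152 mean RPKM, and Clu, from 28.9 to 95.3. Of the 13 immediate early genes tested, which rise when tissue is taken apart, all were called higher against the same 43.3%, with sums of 24.6 and 30.2 RPKM in the controls and 89.0 and 130 in the knockouts. Of the Sertoli genes 3, and of the immediate early genes 6, were below 1 RPKM in both controls and entered only through the knockout. Jund rose 4.71-fold and Ier2 3.10-fold. The part of these cells or of dissociation in the values of Hspb1, Hspb8 and Cryab was not tested.

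Against 43.3% higher among all tested genes, other cell type lists were called higher in 5 of 6 Leydig cell genes (sums of 19.2 and 19.1 RPKM in controls, 60.5 and 50.4 in knockouts), 2 of 2 peritubular myoid genes (4.92 and 4.91, then 10.7 and 12.4) and 5 of 5 macrophage genes (5.10 and 6.46, then 16.0 and 12.5). Their most abundant genes were Insl3 and Star, Myl9 and Tagln, and C1qa and C1qc, with knockout to control ratios of 1.51 to 3.13. None of the 6 endothelial genes, of which Cdh5 and Kdr were the most abundant, passed the filter, with sums of 0.0892 to 0.342 RPKM. Cyp11a1 of the Leydig list and Cd68 and C1qb of the macrophage list were below 1 RPKM in both controls and entered only through the knockout. No gene of these lists was listed at 0 in all 4 libraries. In the germ line, 4 of 5 spermatogonial genes were higher and 1 lower (Uchl1 ratio 2.01, Id4 0.573), again beside 43.3% higher among all tested genes. Summed RPKM of the 15 spermatogonial genes listed did not rise, at 47.6 and 52.2 in controls and 47.1 and 45.7 in knockouts. Id4 alone had 40.3 mean RPKM in controls and 23.1 in knockouts. Meiotic entry genes were higher in 7 of 9, lower in 1 (Spo11, ratio 0.582) and not called in 1 (Sycp3, ratio 1.05). Their sums were 45.5 and 45.7 RPKM in the controls and 63.2 and 60.4 in the knockouts. Dmrt1 of the spermatogonial list and Prdm9 and Dmc1 of the meiotic entry list entered only through the knockout. Spermatid genes were lower in 5 of 7 and higher in 0 (Dnajb3 ratio 0.251, Acr 0.338), where 30.5% of all tested genes were lower. The pachytene genes Hspa2 and Ybx2, at 687 and 418 mean RPKM in the control, were among the most abundant spermatocyte genes, so defining genes of the labelled cell type were present.

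**Figure D3:**
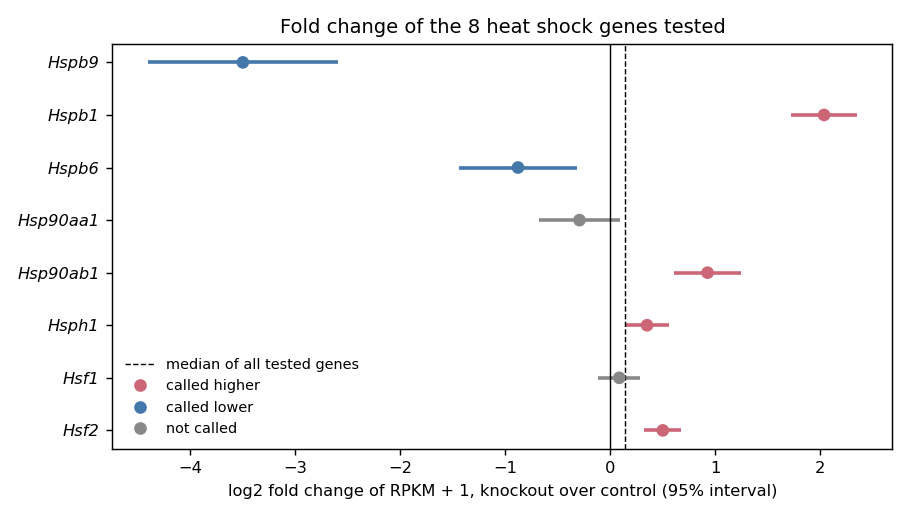
Log2 fold change of RPKM + 1, knockout over control, for the 8 heat shock genes tested, with 95% intervals from limma. The dashed line is the median of all tested genes, 0.14. Hspb9 lies at -3.49 and Hspb1 at 2.04, and the intervals of Hsp90aa1 and Hsf1 cross 0.

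The HSP90 genes moved apart. Hsp90aa1, the HSP90-alpha form on chromosome 12, had 227 and 226 RPKM in the controls against 201 and 170 in the knockouts. Both knockout values were below both controls, but with a log2 fold change of -0.29 (SE 0.15, 95% interval -0.67 to 0.09) it was not called. Its direction turned with an equal RPKM sum (0.12) and with quantile normalization (0.64, called), while it was called lower with an equal median (-0.48) and without knockout replicate 1 (-0.41). The genes nearest to it in pattern were Rpl35, Mcm7, D1Pas1, Atp6v0b and Abcf2, at distances of 0.038 to 0.050, and their means were 1.19-fold to 1.29-fold lower.

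Hsp90ab1, the HSP90-beta form on chromosome 17 that most cells express constantly, had 75.9 and 80.0 RPKM in the controls and 142 and 157 in the knockouts. Both knockout libraries were well above both controls. The ratio of means was 1.92, with a log2 fold change of 0.93 (SE 0.13), called higher in every alternative tried.

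As a ratio within each library, where any scale factor cancels, Hsp90aa1 RPKM was 2.98 and 2.82 times Hsp90ab1 in the controls and 1.42 and 1.08 times in the knockouts. The control libraries averaged a ratio of 2.90 ± 0.113 (SD, n = 2) and the knockout libraries 1.25 ± 0.236 (SD, n = 2). These are 2.32-fold apart and did not overlap. With RPKM read as per gene span and every counted read taken as exonic, levels were rescaled to exon length. Hsp90aa1 then made up 71.6% and 70.5% of the HSP90 sum in the controls and 54.5% and 47.8% in the knockouts. The sum itself was 584 and 591 in the controls and 681 and 655 in the knockouts. How the authors counted reads that match both genes, or their processed copies elsewhere, is not given in the sources used here.

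**Figure D4:**
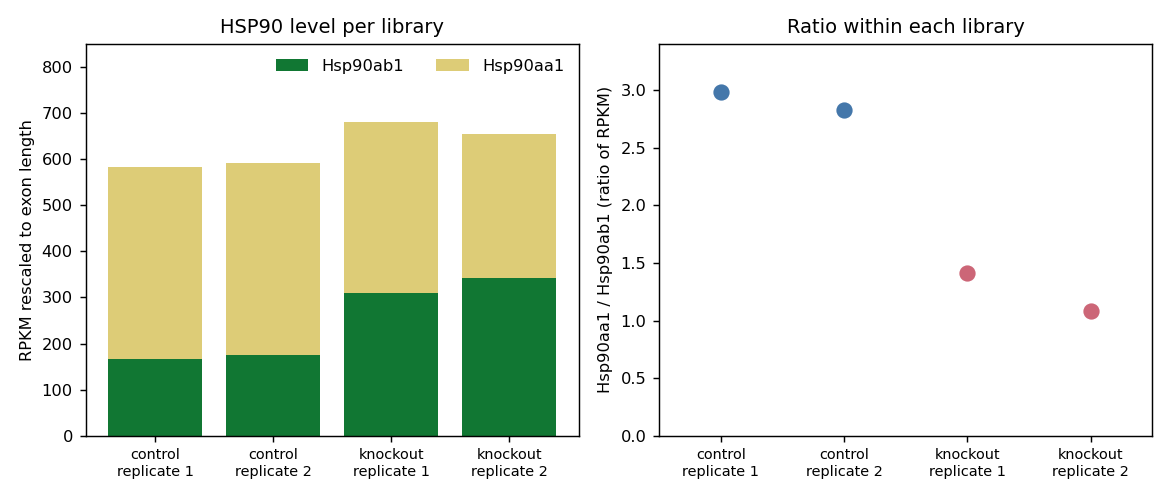
Left, stacked levels of Hsp90ab1 and Hsp90aa1 per library, in RPKM rescaled to exon length. Right, ratio of Hsp90aa1 to Hsp90ab1 RPKM in each library, between 2.82 and 2.98 in the controls and between 1.08 and 1.42 in the knockouts.

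Hsph1, whose product HSP110 exchanges nucleotide on HSP70 and prevents aggregation, rose slightly. It had 3.26 and 3.30 RPKM in the controls and 4.24 and 4.70 in the knockouts, so the groups were apart by more than their spread. The log2 fold change was 0.35 (SE 0.08), or 0.21 above the median of all tested genes. That call ended with an equal median (0.16, limma adjusted p = 0.12), with quantile normalization (0.22, 0.065). Without control replicate 1 or 2 the fold was nearly the same (0.35 and 0.36) and the adjusted p was 0.093 and 0.083.

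The heat shock factors differed from each other. Hsf1, the master regulator of the stress response, had 2.28 and 2.08 RPKM in the controls and 2.32 and 2.44 in the knockouts. The knockout values lay just above the controls, with a log2 fold change of 0.09 (SE 0.08, 95% interval -0.11 to 0.29). It was called higher with an equal RPKM sum (0.38), and its direction turned with an equal median (-0.10) and quantile normalization (-0.14). Hsf2, a factor with developmental roles that include spermatogenesis, had 0.558 and 0.600 RPKM in the controls and 1.21 and 1.26 in the knockouts. Replicates lay near each other, the groups did not overlap, and the ratio of means was 2.14. The log2 fold change was 0.50 (SE 0.07), and the call ended with quantile normalization (0.16, limma adjusted p = 0.066). The lncRNA gene 4930467K11Rik overlaps Hsf2 in RefSeq, with at most 0.0960 RPKM in any library. The ratio of Hsf2 to Hsf1 RPKM within a library was 0.245 and 0.288 in the controls and 0.523 and 0.518 in the knockouts. Hsf5, a testis heat shock factor from outside the list, had 6.10 and 6.09 RPKM in the controls and 4.22 and 3.31 in the knockouts (limma adjusted p = 0.0074). Scaled to an equal RPKM sum, Hsf5 was not called (0.096).

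The order of the 10 genes changed between the groups when RPKM was rescaled to exon length, using the GENCODE transcript nearest in span to the RefSeq gene. These levels are approximate, since the gene models of the authors are not given and the rescaling takes every counted read as exonic. Any reads counted in introns or overlapping genes were scaled up too, by 11.2 for Hsf1 and 10.3 for Hsf2 against 1.0 for Hspb9. Separation between libraries does not cover that error. In the control the order of mean rescaled levels was Hspb9 (987), Hsp90aa1 (417), Hsp90ab1 (170), Hspb6 (37.6), Hsf1 (24.4), Hsph1 (17.1), Hspb1 (10.4), Hsf2 (5.95), Cryab (0.849) and Hspb8 (0.325), and no neighbours in that order overlapped between libraries. In the knockout it was Hsp90aa1 (342), Hsp90ab1 (326), Hspb9 (89.8), Hspb1 (48.5), Hsf1 (26.6), Hsph1 (23.3), Hspb6 (20.3), Hsf2 (12.7), Hspb8 (3.83) and Cryab (2.38). There the libraries of Hsp90aa1 and Hsp90ab1 overlapped, as did those of Hsph1 and Hspb6. The span behind the deposited RPKM is not known for each gene, and it matters for Hspb6 and Cryab, whose RefSeq gene is longer than the transcript used. With the RefSeq span, an alternative chosen after seeing the data, Hspb6 had a control level of 50.3 and a knockout level of 27.1. For Cryab these were 1.71 and 4.78. The control order stayed as given, but in the knockout Hspb6 then stood above Hsf1 (26.9) and Hsph1 (23.1), and Cryab above Hspb8, with overlapping libraries in each case. The places of Hspb6 and Cryab in the knockout order are therefore not settled. Knockout replicate 2 lay farther from the control mean than knockout replicate 1 for all 8 heat shock genes tested, and for 80.6% of all tested genes.

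The wider chaperone network was described with lists written from general knowledge of the pathway. Among HSP90 co-chaperones, which load clients or tune the ATPase, 9 of 28 tested genes rose, 8 fell and 11 were not called, against 43.3% and 30.5% of all tested genes. Their median log2 fold change was -0.03, against 0.14 for all. On the log2(RPKM + 1) scale the largest falls were those of Pih1d1, which links HSP90 to assembly of large complexes (31.1 to 11.3 mean RPKM, log2 fold change -1.39), Ptges3l, a relative of the p23 co-chaperone (-1.18), and Ttc4 (-1.07). The largest rises were those of Fkbp5, an immunophilin that binds steroid receptor complexes (0.348 to 1.37, log2 fold change 0.81), Nudcd2 (0.77) and Fkbp6, which acts in the piRNA pathway (0.59). Fkbp5 was below 1 RPKM in both controls and Spag1, among the 8 that fell, in both knockouts, so each entered through 1 group. By ratio of means Spag1 was 2.69-fold lower, next to 2.76-fold for Pih1d1 and 2.47-fold for Ptges3l. For these 6 genes limma gave adjusted p values between 0.0014 and 0.0031. Stip1, Cdc37, Ahsa1 and Ptges3, named because of their place in the HSP90 cycle, were not called. Their log2 fold changes were 0.22, -0.04, -0.11 and 0.06. Stip1 was near the threshold (limma adjusted p = 0.056) and was called higher without the filter (0.038). These genes do not stand for the whole list, in which 9 rose and 8 fell. Fkbp4, Fkbp8 and Ppp5c were among the 8, with log2 fold changes of -0.64, -0.64 and -0.46. With an equal RPKM sum 18 of the 28 co-chaperones were higher and 4 lower, and with an equal median 4 and 13.

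Hsph1 is an exchange factor of HSP70. Of 9 other such factors tested 5 were lower, 2 higher and 2 not called, against 30.5% lower and 43.3% higher among all tested genes. Their median log2 fold change was -0.26. Bag5 fell from 62.7 and 60.6 RPKM in the controls to 24.8 and 18.8 in the knockouts (limma adjusted p = 0.0015). Bag3, the partner of Hspb8, fell from 3.06 to 1.21 mean RPKM (limma adjusted p = 0.0019), while Hspb8 was higher. Hspa4l, an HSP110 relative of male germ cells, fell from 15.0 to 9.54 (limma adjusted p = 0.0067), but was not called after scaling to an equal RPKM sum (0.11). Bag2 and Bag4 rose 2.27-fold and 1.70-fold (limma adjusted p = 0.0033 and 0.0025). On that same scaling 2 exchange factors were lower.

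Genes of the heat shock response rose in 9 of 12 cases, fell in 2 and were not called in 1 (Dnaja1), where 43.3% of all tested genes were higher. The median log2 fold change was 1.08, and 1 of the 12 was below 1 RPKM in both controls. The inducible HSP70 genes Hspa1a and Hspa1b, which are near-identical and share reads, had 0.998 and 0.946 mean RPKM in controls and 6.04 and 5.98 in knockouts. Hspd1, the mitochondrial chaperonin, rose from 1.99 ± 0.0129 to 7.33 ± 0.620 RPKM (SD, n = 2 each; limma adjusted p = 0.0014). Dnajb1, an HSP40 partner of HSP70, fell from 75.1 to 36.4 (limma adjusted p = 0.0021), and the polyubiquitin gene Ubb fell from 1803 to 954 (0.0087). Quantile normalization left Ubb at a log2 fold change of 0, the value it gives any gene that keeps its rank in every library, so it does not bear on the fall. The fold stayed at -0.92, but the call was lost, without the filter (limma adjusted p = 0.21), with a replicate block (0.072) and without control replicate 1 or 2 (0.105 and 0.108). All 13 immediate early genes and all 16 Sertoli cell genes tested were higher in the same libraries, and their part in these values was not tested.

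Among the other family genes, 4 of 5 tested fell, 0 rose and 1 (Hsp90b1, the HSP90 of the endoplasmic reticulum) was not called, against 30.5% lower among all tested genes. They were Hsbp1, a small protein that binds heat shock factors, from 98.5 ± 2.47 to 38.8 ± 5.96 RPKM (SD, n = 2 each; limma adjusted p = 0.0015), Hspb7, Hsf5 and Trap1, the mitochondrial HSP90, from 4.64 to 3.42 RPKM. Hsp90b1 had 54.3 and 60.0 mean RPKM. With an equal RPKM sum 2 of the 5 were lower and 1 higher.

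**Figure D5:**
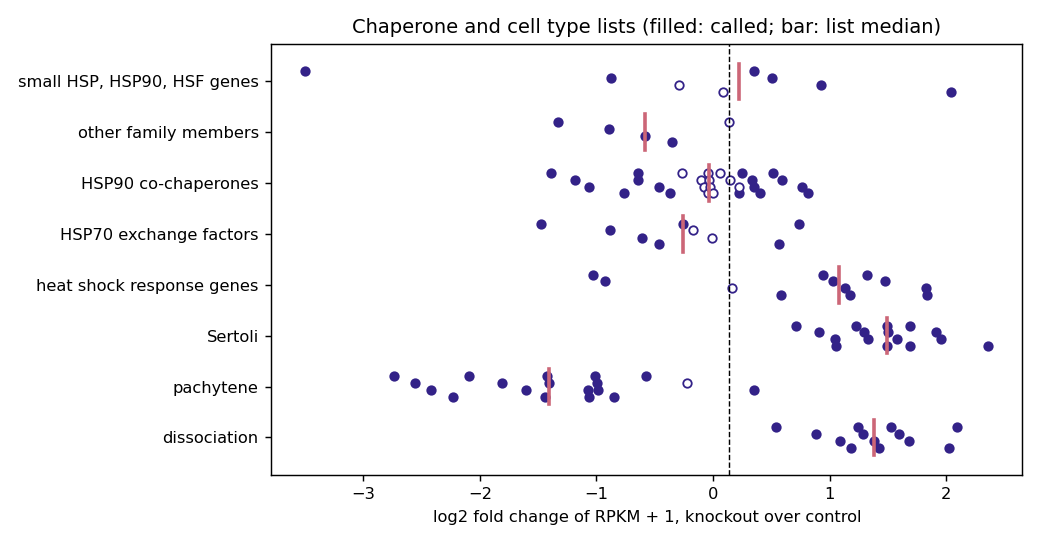
Log2 fold change of RPKM + 1, knockout over control, of each tested gene in the 8 heat shock genes, the 4 chaperone lists and 3 cell type lists. Filled points were called, open points were not, bars are list medians, and the dashed line is the median of all tested genes at 0.14. Heat shock response genes lie mostly to the right and pachytene genes mostly to the left.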

How the data were processed

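The deposited table holds RPKM values that the authors computed for 24444 rows, 1 column per library, per the file headers. Bowtie2 and mm9 are named in the submitters' processing notes, and no source used here names the counter or gene models. By gene span in RefSeq, 45.7% to 48.3% of low values were whole multiples of 1 step (within 0.05), where chance gives 10%. The step was fitted to gene span, and exon length was scored only near that fit. Its share of 10.8% to 11.6% is therefore not an independent comparison. With each step split in 2 the share by gene span was 60.9% to 63.2%. Whole reads were not recovered, so no count test was run. Groups come from the sample titles. Date-like rows (27) and lower rows of repeated symbols (29) were left out, leaving 24388 symbols. The 9099 genes at 1 RPKM or above in 2 libraries or more were compared on log2(RPKM + 1) in R 4.3.3 with limma 3.58.1 (trend on, two-sided), Benjamini-Hochberg adjusted over all tested genes. The same code was tested on simulated data in which few genes changed, unlike these libraries, so that checks the code and not the calls. With 2 libraries a group the smallest p of an exact permutation test is 0.333, and none was run. No list was tested as a set.

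The members, the 4 chaperone lists and the 10 cell type lists were chosen with earlier results of these data known. Named are the members, Uhrf1, up to 3 called genes per direction and chaperone list with the largest change, the 2 most abundant genes per cell type list, the 5 genes nearest in pattern to Hspb9 and Hsp90aa1, the neighbours of Hspb9 and of members that overlap another gene, and members of counts of 5 or fewer; others were chosen after their values were seen. Alternatives were other pseudocounts, filters and scalings, no trend, summed repeated symbols, the replicate number as a block, leaving out each library and, for levels per exon length, another gene span.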

Additional observations from a re-analysis of the deposited data

How the results depend on the processing

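Of 109 recomputed fold changes of the 8 heat shock genes tested, 94 kept their direction and side of the threshold, 8 lost the call, 3 gained one and 4 turned. Those that turned were Hsp90aa1 with an equal RPKM sum (0.12) and quantile normalization (0.64) and Hsf1 with an equal median (-0.10) and quantile normalization (-0.14). Hspb9, Hspb1 and Hsp90ab1 kept their call in every alternative. Of 140 recomputed counts of calls, 113 stayed within 1.5 times the reported count. At 5 RPKM or more, where fewer genes are tested, 2 heat shock genes were higher, 2 other family genes lower, 3 co-chaperones higher, and 0 exchange factors higher and 3 lower. Without the filter 2 other family genes were higher and 1 heat shock response gene lower. With an equal RPKM sum 1 heat shock gene was lower, 1 other family gene higher and 2 lower, 18 co-chaperones higher and 4 lower, and 2 exchange factors lower. With an equal median 4 co-chaperones were higher and 13 lower. With quantile normalization 1 heat shock gene was lower, 1 other family gene higher and 1 response gene lower. Leaving out each library gave 1 to 3 heat shock genes lower (1 without control replicate 1, 3 without knockout replicate 1), 4 to 9 co-chaperones higher (4 without either control) and 5 to 8 lower (5 without control replicate 2), 3 to 5 exchange factors lower (3 without either control) and 1 to 2 response genes lower (1 without either control). Replicate numbers are shared between groups without a stated pairing. With a replicate block 1 response gene was lower, the other counts stayed within 1.5 times, and the replicate differences of the groups correlated at 0.11 across genes. The cause of these shifts was not tested. Rescaling levels by the RefSeq gene span, chosen after seeing the data, changed the knockout places of Hspb6 and Cryab. Depth limits the lowest genes, above all Hspb8 and Cryab.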

Other observations

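Protein-coding RefSeq neighbours of the heat shock genes were looked up, and those of Hspb1, Hsp90ab1 and Hsf1 are named here after their values were seen. Ywhag, a 14-3-3 gene next to Hspb1, had 0.851 and 1.16 RPKM in the controls and 4.75 and 6.48 in the knockouts (limma adjusted p = 0.0014). Slc35b2, a transporter gene of the Golgi next to Hsp90ab1, rose from 4.60 to 9.74 mean RPKM (0.0015). Serinc1, next to Hsf2, rose from 2.80 to 6.98 (0.0014). Of the genes on either side of Hsf1, Bop1, a ribosome biogenesis gene, rose from 3.02 to 4.03 (0.025), and Dgat1, an enzyme of triglyceride synthesis, had 13.1 and 11.6 and was not called (0.16). Next to Cryab, which was higher in the knockout, 1110032A03Rik fell from 30.0 to 9.78 (0.0015), and Dixdc1 on the other side was below the filter. The neighbours of Hsp90aa1 and the coding neighbour of Hsph1 were below the filter too. With 73.8% of all tested genes called, neighbours that both differ are common in these libraries, and no test of neighbours was made.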
